A study of Mus musculus with 167 samples.

Results

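The livers described here are those of wild-type male C57BL/6 mice on day 14 of phenobarbital, a barbiturate given in the drinking water, and of untreated wild-type mice of the same day. They were chosen by the labels for genotype, treatment and time point alone, which gave 5 phenobarbital animals (numbers 2011 to 2015) and 4 control animals (1011 to 1014), or 9 of the 167 livers in the series. The series set wild-type mice beside CAR/PXR knock-out mice (CARKO-PXRKO), which lack both nuclear receptors, and human CAR/PXR mice (CARh-PXRh), which carry the human receptors instead, over 13 weeks of dosing and a recovery period, with 1 Affymetrix mouse array per animal. All mice were C57BL/6 males from TaconicArtemis, aged 9 to 11 weeks per the labels and divided at random between the arms, and were killed in the morning on a 12 h light cycle. The treated arm received phenobarbital and the control arm is labelled control, and the labels give no other allele or agent for either. The concentration of 0.05% (wt/vol) rests on the treatment text, where weaker solutions and a younger start are mentioned too, since no animal's own label gives a dose. Samples of several liver lobes were powdered before RNA was extracted, so each value is of bulk tissue, in which fewer cells of a type and less RNA per cell cannot be told apart.

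CAR (gene Nr1i3) and PXR (gene Nr1i2) are nuclear receptors of hepatocytes that sense foreign compounds and pair with the retinoid X receptor on DNA. Phenobarbital activates CAR indirectly: it blocks the epidermal growth factor receptor, after which CAR is dephosphorylated and moves into the nucleus. Target genes encode cytochrome P450 enzymes that oxidise drugs, transferases that conjugate the products, and transporters that export them. In rodents, long treatment enlarges the liver and promotes tumours.

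Levels are log2 expression values of the array, summarised per probe set by the submitters, and differences are phenobarbital minus control on that scale, so that 1 unit is a 2-fold change. After ± stands the standard error (SE) of the fit, or the SD where so marked. Adjusted p-values are two-sided and from limma, with Benjamini-Hochberg adjustment over 12623 tested genes. The targeted receptors were present in all 9 livers. The level of Nr1i3 was 8.14 to 8.31 with phenobarbital and 8.17 to 8.62 in controls, that of Nr1i2 was 7.40 to 7.93 with phenobarbital and 7.39 to 8.01 in controls, and neither difference passed the test (adjusted p = 0.308 and 0.529). Hepatocyte markers were at the top of the scale, with albumin (Alb) at 14.80 to 14.86 with phenobarbital and 14.86 to 14.87 in controls. The 36 pairs among the 9 arrays differed from each other by an SD of 0.160 to 0.409 over 2707 well-expressed genes, so none was a repeat of another.

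RNA of the exocrine pancreas was unequal among these livers. The mean of 10 acinar markers (digestive enzymes such as Cpa1, Cela1, Ctrb1 and Prss2) was 5.70, 7.33, 5.57, 5.38 and 8.12 in phenobarbital livers, against 9.86, 9.88, 5.38 and 5.36 in controls. Animals 1011, 1012, 2015 and 2012 stood above the others, 2 in each group, but the 2 high controls lay above the 2 high treated livers. All 10 differences were below 0 (median −1.31), and 0 of the 10 markers passed the test in limma, adjusted or unadjusted. The part of this in other results was not tested beyond leaving those 4 livers out, an alternative added after the data were seen, and where it ended the call of a gene described below, that value stands beside the result. That alternative sets treated animals 2011, 2013 and 2014 against controls 1013 and 1014 only. The number of animals and the weight of control 1014 thus change together with the acinar RNA, and their parts cannot be told apart.

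Phenobarbital changed 1109 of 12623 genes, or 8.79% (adjusted p under 0.05), with 392 higher (3.11%) and 717 lower (5.68%). Most of these changes were small, and 166 genes (1.32%) also moved at least 1.5-fold, 113 of them higher (0.895%) and 53 lower (0.420%). At least 2-fold, 44 genes were higher (0.349%) and 12 lower (0.0951%). The 5 treated and 4 control values did not overlap for 429 genes that were higher (3.40%) and 704 that were lower (5.58%). The balance of directions rested on the scaling: after a further quantile normalization 486 genes were called higher and 389 lower. The total also rested on single animals, and lower genes remained the larger part. It was 669 without control 1013 (266 higher and 403 lower) and 565 without control 1014 (265 and 300). Without treated animal 2014 it was 1176 (343 and 833). At least 1.5-fold, the count lay between 112 without control 1014 and 197 without control 1011.

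Cytochrome P450 genes of the Cyp2b and Cyp2c subfamilies rose most. Cyp2b10, the usual readout of CAR, had levels of 13.21, 13.07, 13.18, 13.11 and 13.24 in phenobarbital livers, against 6.65, 6.46, 6.99 and 6.19 in controls. The 5 treated livers lay within 0.2 units of each other and about 6 units above every control. The difference was 6.59 ± 0.20, or 96.2-fold (adjusted p = 6.02e-62). Cyp2c65 had levels of 9.76, 10.01, 9.63, 9.54 and 9.66 in phenobarbital livers, against 3.37, 3.65, 3.31 and 3.43 in controls. In controls these values are near the floor of the array, so the difference of 6.28 ± 0.17 (77.9-fold, adjusted p = 3.09e-68) starts from a level that RMA compresses. Cyp2c55, which is expressed in untreated liver, had levels of 12.94, 12.48, 12.82, 13.04 and 13.04 in phenobarbital livers, against 8.72, 8.15, 7.92 and 7.29 in controls. Its controls were spread over more than 1 unit, with animal 1014 lowest, yet the lowest treated liver was far above the highest control (4.84 ± 0.17, 28.7-fold, adjusted p = 1.6e-56).

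Cyp2b9, a P450 that male liver normally keeps low, varied widely among the treated animals. Its levels were 7.78, 5.24, 7.01, 8.05 and 7.50 in phenobarbital livers, against 4.01, 3.86, 4.02 and 3.99 in controls. Animal 2012 responded least and the 4 controls were within 0.2 units of each other, with a difference of 3.15 ± 0.39 (adjusted p = 2.23e-10). Cyp2b13, another P450 more abundant in female liver, was also lowest in treated animals 2012 and 2013, with levels of 6.02, 5.12, 5.52, 5.84 and 5.70 in phenobarbital livers, against 4.88, 4.80, 4.81 and 4.57 in controls. Its difference was 0.87 ± 0.21 (adjusted p = 0.00355), and the groups did not overlap. Transcripts of such close relatives may bind one another's probes, which makes the value of each member uncertain, and the Cyp2c65 probe set is one that the manufacturer marks as shared between similar transcripts.

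Other P450 genes moved less on this scale. Cyp2c54 was at 13.96 ± 0.04 (SD, n = 5) with phenobarbital and 12.46 ± 0.19 (SD, n = 4) in controls, a difference of 1.51 ± 0.13 (adjusted p = 2.29e-18), and Cyp2c29 rose by 0.63 ± 0.07 (adjusted p = 6.41e-12). Cyp3a11, a PXR target near the upper end of the array's range, was at 14.33 to 14.45 with phenobarbital and 14.24 to 14.32 in controls. Its groups did not overlap, but the difference was 0.14 ± 0.04 (adjusted p = 0.013). The call was lost in a fit of the compared groups alone (adjusted p = 0.207) and without the 4 acinar-rich livers (adjusted p = 0.364). Cyp2c68 went the other way, with levels of 11.68, 11.36, 11.52, 11.95 and 11.89 in phenobarbital livers, against 12.16, 12.41, 12.35 and 12.81 in controls. All treated livers were below all controls (−0.75 ± 0.15, adjusted p = 0.000196). Of 29 tested Cyp2 and Cyp3 genes, 12 were higher and 2 lower, where 3.11% of all genes were higher and 5.68% lower, with a median difference of 0.14 against −0.03 over all tested genes. Their mean level was 10.95 to 11.16 with phenobarbital and 10.09 to 10.18 in controls.

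**Figure D1:**
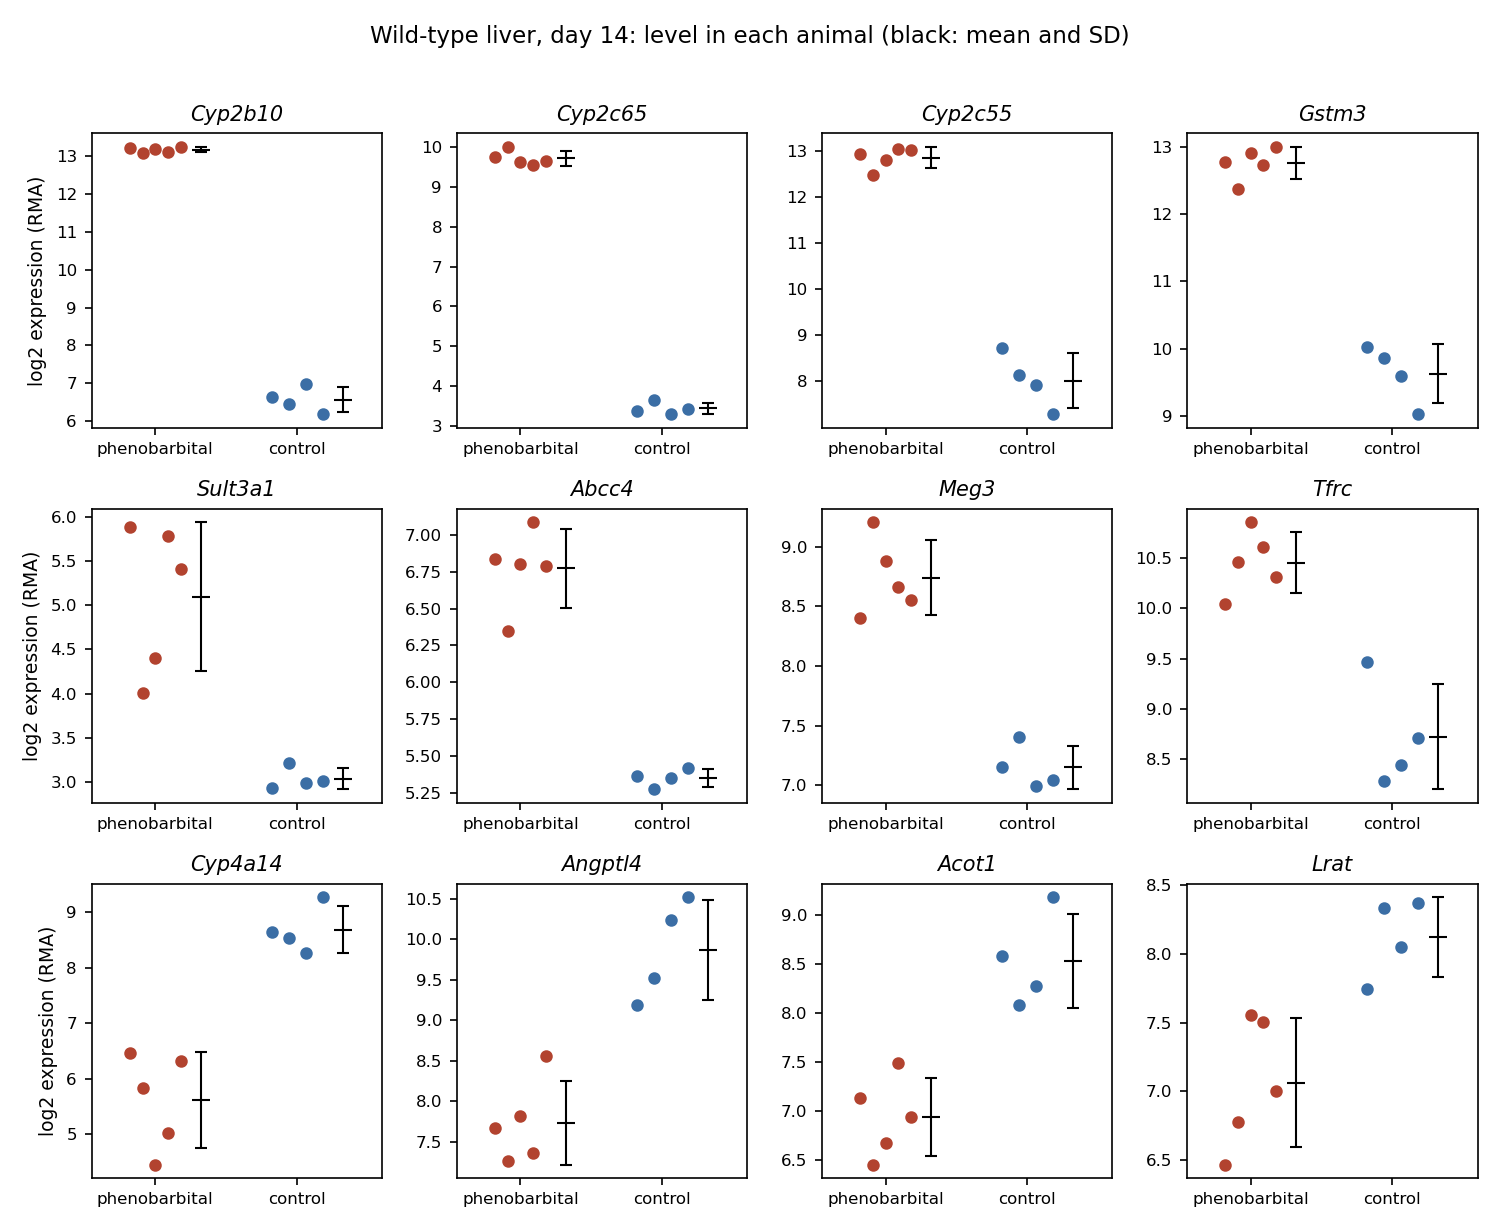
Log2 expression of 12 genes in each wild-type liver of day 14, with phenobarbital animals in red on the left, controls in blue on the right, and the mean and SD in black beside each group; each panel has its own vertical axis. For these 12 genes the treated and control animals do not overlap, and Sult3a1 and Cyp4a14 vary most among the treated livers (SD 0.85 and 0.86).

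The promoters of the 4 most raised genes are shown because these genes were above control in every treated liver and form pairs of close relatives. They are the 250 bases before the RefSeq start of each gene, on the gene's strand, from build GRCm38.p6, and the start is the base after the last letter. 3 motifs were searched on both strands, and matches are in capitals: AGGTCA, a half-site of nuclear receptors; TGACNNNGC, an element of the NRF2 type; and TGCGTG, an element of the Ah receptor.
Cyp2b10 (chr7:25897408-25897657, plus strand): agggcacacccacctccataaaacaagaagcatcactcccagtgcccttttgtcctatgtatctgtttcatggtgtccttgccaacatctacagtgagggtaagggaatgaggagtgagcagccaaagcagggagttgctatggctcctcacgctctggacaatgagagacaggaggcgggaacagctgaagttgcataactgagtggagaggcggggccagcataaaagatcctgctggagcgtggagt
Cyp2b9 (chr7:26173159-26173408, plus strand): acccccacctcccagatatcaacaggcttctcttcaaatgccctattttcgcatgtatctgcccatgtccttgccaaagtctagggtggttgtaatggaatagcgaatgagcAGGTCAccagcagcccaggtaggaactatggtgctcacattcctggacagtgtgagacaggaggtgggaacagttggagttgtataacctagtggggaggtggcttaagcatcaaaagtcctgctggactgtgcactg
Cyp2c65 (chr19:39060756-39061005, plus strand): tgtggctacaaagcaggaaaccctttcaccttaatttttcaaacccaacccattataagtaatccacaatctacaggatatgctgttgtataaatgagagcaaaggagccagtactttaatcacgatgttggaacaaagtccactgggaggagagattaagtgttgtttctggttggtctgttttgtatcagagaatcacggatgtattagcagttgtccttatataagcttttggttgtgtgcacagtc
Cyp2c55 (chr19:39006769-39007018, plus strand): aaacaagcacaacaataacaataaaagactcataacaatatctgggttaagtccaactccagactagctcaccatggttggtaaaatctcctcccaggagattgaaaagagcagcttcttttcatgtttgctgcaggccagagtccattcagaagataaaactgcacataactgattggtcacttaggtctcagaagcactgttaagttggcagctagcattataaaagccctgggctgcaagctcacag
In a global alignment, Cyp2b10 and Cyp2b9 shared 186 of 250 bases (74.4%), against 156 (62.4%) for Cyp2c65 and Cyp2c55 and 146 to 152 (58.4% to 60.8%) for the 4 pairs across the subfamilies. The AGGTCA half-site occurred once, in Cyp2b9, and the other motifs were not in these 4 windows. Over the whole promoter table of 27025 genes, 13.8% held AGGTCA, 10.1% TGACNNNGC and 6.8% TGCGTG. Among the genes raised at least 1.5-fold with an entry there, 11.2%, 12.4% and 11.2% of 89 promoters held them, and among tested genes 11.5%, 12.1% and 9.6% of 10156. Among the genes lowered at least 1.5-fold it was 20.5%, 18.2% and 4.5% of 44, and differences between these sets were not tested. These shares describe letters in a short window and not binding.

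Other genes for oxidation, reduction and hydrolysis were called higher in 13 of 34 cases, against 3.11% of all genes. Another 2 were lower and 19 were not called, and the median difference was 0.20. The carboxylesterase Ces2a, which cleaves ester drugs, had levels of 12.82, 12.69, 12.73, 12.74 and 12.74 in phenobarbital livers, against 11.84, 11.68, 11.73 and 11.57 in controls. Each group was tight and the difference was 1.04 ± 0.08, or 2.06-fold (adjusted p = 2.16e-22). The aldehyde dehydrogenase Aldh1a1, which makes retinoic acid, was at 14.13 ± 0.07 (SD, n = 5) with phenobarbital and 13.69 ± 0.09 (SD, n = 4) in controls (0.44 ± 0.05, adjusted p = 1.41e-13). Cyp1a2, an Ah receptor target of perivenous hepatocytes, rose by 0.76 ± 0.14 (adjusted p = 2.82e-05), and so did the receptor gene Ahr itself, by 0.97 ± 0.20 (adjusted p = 0.00035). Cyp1a2 was at 13.04 to 13.23 with phenobarbital and 12.11 to 12.49 in controls, without overlap. Of the 12 tested NRF2 oxidative stress genes 3 were higher, Abcc4, the sulfiredoxin Srxn1 (0.56 ± 0.10) and the quinone reductase Nqo1 (0.46 ± 0.14). The Nqo1 call was lost without animal 1013, 1014 or 2011 (adjusted p = 0.0658, 0.0972 and 0.0627).

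Glutathione transferases, which conjugate electrophiles, were higher mainly in the mu class (Gstm1, Gstm2, Gstm3, Gstm4 and Gstm6). Of 19 tested, 8 were higher, against 3.11% of all genes, and 0 lower, with a median difference of 0.22. Gstm3 had levels of 12.77, 12.38, 12.91, 12.73 and 13.00 in phenobarbital livers, against 10.02, 9.87, 9.59 and 9.03 in controls. The treated livers were within 0.7 units of each other, and control 1014 was lowest (3.13 ± 0.19, 8.74-fold, adjusted p = 2.44e-31). Gstm2 rose by 1.61 ± 0.17 and Gstt3 by 1.58 ± 0.17 (adjusted p = 1.55e-13 and 4.3e-13). Gstm1 was at 13.40 ± 0.14 (SD, n = 5) with phenobarbital and 12.37 ± 0.10 (SD, n = 4) in controls, a difference of 1.02 ± 0.11 (adjusted p = 1.41e-13).

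Sulfation genes were called higher in 6 of 13 cases and lower in 0, against 3.11% and 5.68% of all genes, with a median of 0.39. Sult3a1, a sulfotransferase more abundant in female liver, had levels of 5.88, 4.00, 4.41, 5.78 and 5.41 in phenobarbital livers, against 2.94, 3.21, 2.99 and 3.01 in controls. Animals 2012 and 2013 responded least and still lay above every control (2.06 ± 0.32, adjusted p = 4.76e-07). The oestrogen sulfotransferase Sult1e1 had levels of 6.27, 5.33, 4.42, 4.08 and 4.80 in phenobarbital livers, against 3.55, 3.31, 3.45 and 3.61 in controls. Its highest animal was 2011 and its lowest treated animal was 2014 (2.83-fold, adjusted p = 2.79e-07). Sult1c2 rose by 0.88 ± 0.17 and Papss2, which makes the sulfate donor, by 0.63 ± 0.09 (adjusted p = 0.000121 and 3.46e-08). Of 13 glucuronidation genes 4 were higher, also against 3.11%, and 0 lower (median 0.16), among them Ugt2b34 (0.72 ± 0.06, adjusted p = 2.73e-18) and Ugt2b35 (0.65 ± 0.07, adjusted p = 2.7e-12).

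The efflux pump Abcc4 had levels of 6.84, 6.35, 6.80, 7.09 and 6.79 in phenobarbital livers, against 5.36, 5.27, 5.35 and 5.42 in controls. The controls were within 0.2 units of each other and animal 2012 was the lowest treated liver (1.42 ± 0.18, 2.68-fold, adjusted p = 6.85e-10). Abcc3, which exports conjugates towards the blood, rose by 1.02 ± 0.11 (adjusted p = 2.88e-13). Abcc2, which exports them into bile, rose by 0.51 ± 0.12 (adjusted p = 0.0021), a call lost without the 4 acinar-rich livers (adjusted p = 0.140). These were the 3 higher genes of 13 tested for efflux, against 3.11% of all genes (median −0.06). The 1 lower efflux gene was not called without any one of 1013, 1014, 2011, 2012 and 2013. Of 12 uptake genes 1 was higher, against the same 3.11%, the organic anion carrier Slco1a4 (0.81 ± 0.21, adjusted p = 0.0053, and 0.0534 without the acinar-rich livers). Alas1, the first enzyme of haem synthesis, was at 9.71 to 11.54 with phenobarbital and 9.22 to 10.19 in controls and did not pass (0.78 ± 0.59, adjusted p = 0.452).

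Several genes outside drug metabolism were among the 20 largest rises. Nebl, which encodes an actin-binding protein, had levels of 6.76, 5.91, 6.89, 6.49 and 6.51 in phenobarbital livers, against 4.01, 3.74, 4.15 and 4.25 in controls. Every treated liver was above every control by more than 1.5 units (2.47 ± 0.22, 5.55-fold, adjusted p = 7.08e-18). Kcnk1, a potassium channel subunit, had levels of 6.99, 8.54, 8.12, 7.41 and 7.95 in phenobarbital livers, against 5.60, 5.76, 5.50 and 6.14 in controls. Animal 2012 was highest here, although it was lowest for Cyp2b9, Sult3a1 and Abcc4 (2.05 ± 0.22, adjusted p = 2.09e-13). Cnmd, an inhibitor of vessel growth known from cartilage, rose by 2.02 ± 0.16, and the matricellular Wnt target Ccn4 by 1.61 ± 0.18 (adjusted p = 1.22e-21 and 3.84e-13), the other Ccn4 probe set showing 2.40. The predicted genes Gm10419 and 1700067K01Rik rose by 2.47 ± 0.18 and 2.03 ± 0.13 (adjusted p = 9.08e-24 and 2.81e-27). Lect2, a protein that hepatocytes secrete, rose by 0.92 ± 0.10 (adjusted p = 1.27e-12).

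Tfrc, the transferrin receptor that takes up iron, had levels of 10.04, 10.46, 10.86, 10.61 and 10.31 in phenobarbital livers, against 9.46, 8.28, 8.44 and 8.70 in controls. The groups did not overlap, and control 1011 was the highest control (1.74 ± 0.23, 3.33-fold, adjusted p = 3.49e-09). The iron exporter Slc40a1 moved the other way, at 10.78 ± 0.14 (SD, n = 5) with phenobarbital and 11.21 ± 0.10 (SD, n = 4) in controls (−0.43 ± 0.11, adjusted p = 0.00719, and 0.155 without the acinar-rich livers). Of 13 iron genes 3 were higher and 2 lower, against 3.11% and 5.68% of all genes. In a fit of the compared groups alone 1 was called in each direction, and without the 4 acinar-rich livers 2 were higher and 0 lower. Without any one of 1012, 1013, 1014, 2011, 2013, 2014 and 2015, 1 iron gene was called higher, and without any one of 1011, 1012, 1014, 2012, 2013 and 2015, 1 was called lower. The growth arrest gene Gadd45b, a known CAR target, had levels of 6.87, 7.45, 7.35, 6.54 and 6.56 in phenobarbital livers, against 5.68, 5.28, 5.53 and 5.73 in controls. Animals 2012 and 2013 were highest and the groups did not overlap (1.40 ± 0.16, adjusted p = 5.99e-12), while its other probe sets showed 0.17 and 1.20. Gadd45a rose by 1.06 ± 0.34 (adjusted p = 0.0357), but the call was lost without any one of animals 1012, 1013, 1014, 2011, 2012 and 2014 (adjusted p between 0.0503 and 0.172), or without the 4 acinar-rich livers (0.211). The acute phase genes Orm3 (1.31 ± 0.18, adjusted p = 4.41e-09) and Orm2 (1.21 ± 0.35, adjusted p = 0.0155) were higher. The Orm2 call was lost without animal 1014 or 2013 (adjusted p = 0.0755 and 0.0545) and without the acinar-rich livers (0.0620). Of 23 acute phase genes 3 were higher and 3 lower (median −0.06), against 3.11% and 5.68% of all genes. Without the acinar-rich livers 1 was higher, and in a fit of the compared groups alone 1 was lower.

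The imprinted Dlk1-Dio3 domain, whose maternal copy produces non-coding RNAs, was higher in all 3 tested members, against 3.11% of all genes. Meg3 had levels of 8.40, 9.21, 8.88, 8.66 and 8.56 in phenobarbital livers, against 7.15, 7.41, 6.99 and 7.05 in controls. Animal 2012 was highest, and the lowest treated liver was about 1 unit above the highest control (1.59 ± 0.17, 3.02-fold, adjusted p = 5.47e-14). Its other probe sets above the filter ranged between 0.02 and 1.70. Rian rose by 0.77 ± 0.24 and Mirg by 0.32 ± 0.09 (adjusted p = 0.0241 and 0.0192). Both calls were lost when single animals were left out, with adjusted p up to 0.0842 for Rian (without 1011, 1013, 1014 or 2013) and 0.0721 for Mirg (without 1011, 1013 or 2011). Without the 4 acinar-rich livers they were 0.0834 and 0.224. Among 15 other imprinted genes 1 was higher and 1 lower, near the 3.11% and 5.68% over all genes.

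Raised genes lay beside each other on the chromosomes. Of the 113 genes raised at least 1.5-fold, 26 (23.0%) had a directly neighbouring tested gene that was also raised at least 1.5-fold, against 217 of 12561 tested genes (1.73%). The runs were Cyp2b10, Cyp2b13, Cyp2b9 and Cyp2g1; Gstm3, Gstm2, Gstm1 and Gstm4; Cyp2c55, Cyp2c65 and Cyp2c29; Cyp2c37, Cyp2c54 and Cyp2c50; and the pairs Sult1d1 and Sult1e1, Orm3 and Orm2, and Meg3 and Rian. The other 3 pairs join unrelated genes, Ccn4 with Ndrg1, Fam47e with Stbd1, and Cpe with the sterol gene Msmo1. Among the 53 lowered genes 2 (3.77%) had such a neighbour, against 0.844% of all. Because relatives can share probe signal, members of a run are not separate observations.

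Lipid genes led the falls. Cyp4a14, a fatty acid hydroxylase controlled by PPARα, the receptor of the fasting response, had levels of 6.46, 5.84, 4.46, 5.02 and 6.32 in phenobarbital livers, against 8.65, 8.54, 8.28 and 9.28 in controls. The treated livers spread over 2 units and all lay below the controls (−3.07 ± 0.67, 8.38-fold lower, adjusted p = 0.000711). Angptl4, an inhibitor of lipoprotein lipase that rises in fasting, had levels of 7.67, 7.26, 7.82, 7.36 and 8.55 in phenobarbital livers, against 9.19, 9.53, 10.23 and 10.52 in controls. Control 1014 was highest and treated animal 2015 stood nearest to the controls (−2.14 ± 0.33, 4.4-fold lower, adjusted p = 5.24e-07). The acyl-CoA thioesterase Acot1 had levels of 7.13, 6.45, 6.68, 7.49 and 6.94 in phenobarbital livers, against 8.58, 8.08, 8.27 and 9.18 in controls. Here too control 1014 was highest and the groups did not overlap (−1.59 ± 0.22, 3.01-fold lower, adjusted p = 1.16e-08).

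Ppara itself fell by 0.67 ± 0.16 on the log2 scale (adjusted p = 0.00213), and the lipid droplet proteins Plin2 (−0.47 ± 0.12, adjusted p = 0.00411) and Plin5 (−0.63 ± 0.16, adjusted p = 0.00509) were lower. All 3 calls were lost without control 1014 (adjusted p = 0.0723, 0.0728 and 0.105), and that of Plin5 in a fit of the compared groups alone (0.0507). Of 25 tested PPARα and fatty acid oxidation genes, 12 were lower and 0 higher, against 5.68% of all genes called lower, with a median difference of −0.22. Without control 1014 3 of them were called lower, without the 4 acinar-rich livers 6, and in a fit of the compared groups alone 6. The list's mean level was 9.17, 8.96, 8.99, 9.17 and 9.20 in phenobarbital livers, against 9.59, 9.44, 9.57 and 9.84 in controls. The groups did not overlap, and control 1014 was the highest animal. Pck1 and Igfbp1, genes of gluconeogenesis and insulin action that rise in fasting, did not pass (−0.70 ± 0.31 and −1.23 ± 0.56, adjusted p = 0.156 and 0.163). Among 18 gluconeogenesis and glycogen genes 0 were higher and 1 lower (median −0.14), against 3.11% and 5.68% of all genes. Without animal 1012 or 2014 3 were called lower. In limma 9 of the 18 were lower at an unadjusted p under 0.05, which 22.2% of all genes reached in either direction, and 13 differences were below 0.

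Genes of cholesterol synthesis rose in 7 of 21 cases, against 3.11% of all genes, with overlap between the animals. Sqle, the squalene epoxidase, had levels of 9.10, 8.66, 9.99, 9.59 and 9.55 in phenobarbital livers, against 8.91, 7.91, 7.60 and 7.37 in controls. Control 1011 lay above treated animal 2012 (1.43 ± 0.34, adjusted p = 0.00247). Msmo1, a sterol demethylase, rose by 1.02 ± 0.24 (adjusted p = 0.00205), with values of 11.60, 11.25, 12.25, 11.97 and 11.99 in treated livers and 11.30, 10.67, 10.60 and 10.59 in controls. Of the 21 tested genes 0 were lower, the median was 0.51, and each of the 21 had overlapping groups, where 3.40% of all genes were higher without overlap. The list's mean level was 10.13, 9.81, 10.57, 10.45 and 10.35 in phenobarbital livers, against 10.18, 9.77, 9.67 and 9.29 in controls. Among controls 1011 was highest and 1014 lowest, and treated animal 2012 lay near control 1012. Without control 1014 2 genes were called, in a fit of the compared groups alone also 2, and without control 1011 or treated animal 2012 14. Without the 4 acinar-rich livers, where 1013 and 1014 are the only controls, 17 were called. The calls of the synthase Hmgcs1 (0.72 ± 0.24) and the decarboxylase Mvd (1.10 ± 0.33) were lost without control 1014 (adjusted p = 0.141 and 0.174). They were also lost without 1012 or 2013, and that of Hmgcs1 without 1013, 2011, 2014 or 2015. Fasn, the fatty acid synthase, was at 10.28 to 10.89 with phenobarbital and 8.61 to 10.93 in controls, with control 1014 lowest, and did not pass (adjusted p = 0.253).

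**Figure D2:**
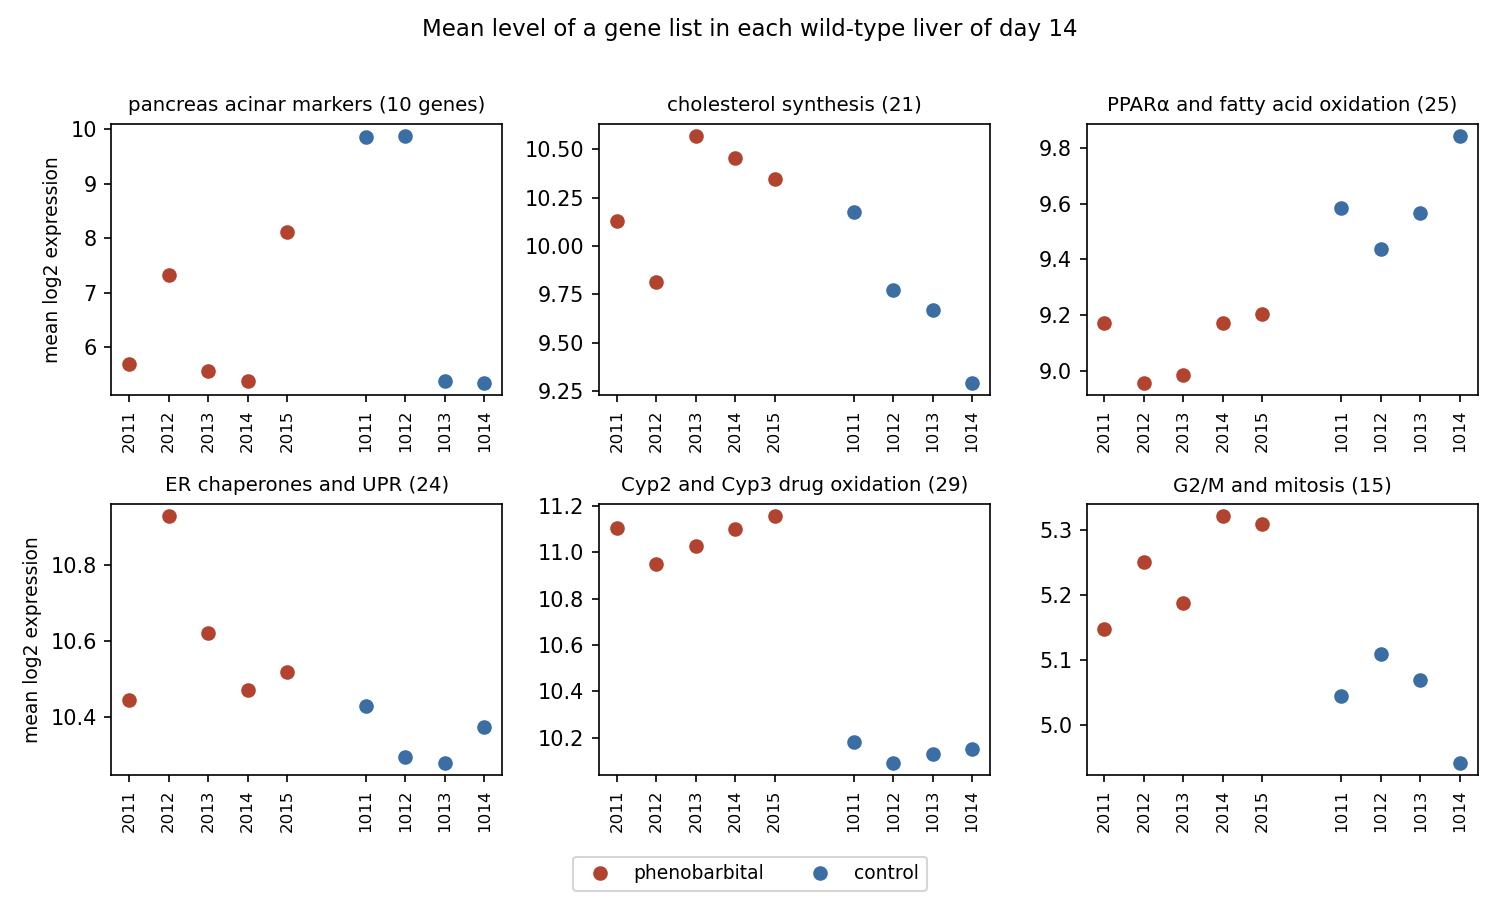
Mean log2 expression of 6 gene lists in each wild-type liver of day 14, phenobarbital animals in red on the left and controls in blue on the right, labelled by animal number. Acinar markers are high in 1011, 1012, 2015 and 2012, control 1014 is highest for fatty acid oxidation and lowest for cholesterol synthesis, and the Cyp2 and Cyp3 list separates the groups.

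Of 24 tested genes for ER chaperones, which fold secreted proteins, and for the unfolded protein response, 5 were higher, against 3.11% of all genes, 0 were lower and 19 were not called. The median was 0.24, and the largest rise was that of Asns, the asparagine synthetase, which is not a chaperone (1.19 ± 0.40, adjusted p = 0.0470, with overlapping groups). The Asns call was lost without any one of 1011, 1013, 1014, 2011, 2012 and 2013 (adjusted p between 0.0657 and 0.225). It was also lost in a fit of the compared groups alone (0.121) and without the 4 acinar-rich livers (0.238). The higher genes included the chaperones Hyou1 (0.40 ± 0.12, adjusted p = 0.0203), Pdia4 (0.39 ± 0.11, adjusted p = 0.0172) and Calr (0.30 ± 0.09, adjusted p = 0.0158). Without control 1012 2 of the 24 were called and without the 4 acinar-rich livers 0. Leaving out those 4 gave adjusted p of 0.343 for Hyou1, 0.168 for Pdia4 and 0.384 for Calr. Single animals also ended calls, that of Hyou1 without 1011, 1012 or 2012 (adjusted p = 0.0531, 0.0508 and 0.0773). The Pdia4 call was lost without 1012 (0.0553) and that of Calr without 2015 (0.0518). The list's mean was 10.45, 10.93, 10.62, 10.47 and 10.52 in phenobarbital livers, against 10.43, 10.30, 10.28 and 10.37 in controls. Animal 2012 was highest. Of the 4 livers rich in acinar markers, 2012 and 2015 had the list means of 10.93 and 10.52 and controls 1011 and 1012 those of 10.43 and 10.30, while their acinar means were 7.33, 8.12, 9.86 and 9.88.

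Errfi1, which encodes a feedback inhibitor of the epidermal growth factor receptor, had levels of 11.99, 12.17, 11.57, 12.14 and 12.56 in phenobarbital livers, against 12.86, 12.89, 13.25 and 13.41 in controls. All treated livers lay below the controls (−1.02 ± 0.18, 2.03-fold lower, adjusted p = 9.42e-06). Of 17 genes of the EGF receptor and growth factors 3 were lower, against 5.68% of all genes, and 0 higher (median −0.16). Beside Errfi1 these were Igf1 and Fgfr4 (−0.40 ± 0.10, adjusted p = 0.0043). The Fgfr4 call was lost without control 1014 (adjusted p = 0.0507), and 2 other Fgfr4 probe sets showed 0.06 and 0.12. Cdkn1a, which encodes the cell cycle inhibitor p21, had levels of 6.69, 6.73, 6.41, 6.66 and 6.87 in phenobarbital livers, against 7.69, 6.87, 6.97 and 8.12 in controls. The groups did not overlap, and controls 1011 and 1014 were highest (−0.74 ± 0.22, adjusted p = 0.0216, against 0.220 without 1014, 0.0800 without 1011, 0.0658 without 2013 and 0.0979 in a fit of the compared groups alone). The p53 target Perp, a membrane protein, was lower with tighter groups (−0.51 ± 0.08, adjusted p = 3.42e-07). Those were the 2 lower genes among 15 p53 targets, against 5.68% of all genes, with 0 higher (2 at an unadjusted p under 0.05, which 22.2% of all genes reached in either direction).

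Of 14 retinoid genes 1 was higher and 3 lower, against 3.11% and 5.68% of all genes, and without the 4 acinar-rich livers 2 were higher and 0 lower. Lrat, which esterifies retinol in stellate cells, had levels of 6.47, 6.78, 7.55, 7.51 and 7.01 in phenobarbital livers, against 7.75, 8.33, 8.05 and 8.37 in controls. The treated livers lay below the controls, with 2011 lowest (−1.06 ± 0.28, 2.09-fold lower, adjusted p = 0.00649, and 0.0904 without the acinar-rich livers). Rdh16f2, of the retinol dehydrogenase family, was at 9.61 ± 0.32 (SD, n = 5) with phenobarbital and 10.55 ± 0.22 (SD, n = 4) in controls (−0.94 ± 0.17, adjusted p = 3.27e-05, and 0.130 without those livers). Of 11 stellate cell markers 4 were lower, against 5.68% of all genes, and 0 higher, namely Lrat, Rgs5 (−0.55 ± 0.13), Dcn (−0.38 ± 0.08) and Reln (−0.30 ± 0.09), with a list mean of 7.72 to 8.06 with phenobarbital and 7.97 to 8.39 in controls. The Reln call was lost without control 1011 or 1014 (adjusted p = 0.0514 and 0.109). In a fit of the compared groups alone 2 of these 4 calls remained, those of Rgs5 (adjusted p = 0.0515) and Reln (0.0549) being lost. Without the acinar-rich livers 1 remained, that of Rgs5, with Dcn at an adjusted p of 0.0601 and Reln at 0.130. Endothelial, Kupffer cell, T cell, neutrophil and cholangiocyte markers had 0 called members each, among 10, 11, 4, 5 and 5 tested, against 8.79% of all genes. Lists this short can hold 0 called members at that share. At an unadjusted p under 0.05 in limma they had 2, 0, 0, 0 and 1, against 22.2% of all genes. Of 5 B cell and plasma cell markers 1 was higher and 0 lower, against 3.11% and 5.68% of all genes. It was the B cell gene Ighm, with levels of 10.69, 8.97, 10.48, 11.07 and 10.20 in phenobarbital livers, against 8.89, 9.19, 8.42 and 6.75 in controls. The groups overlapped through treated animal 2012 and controls 1011 and 1012 (1.97 ± 0.43, adjusted p = 0.00082, and 0.0552 in a fit of the compared groups alone), and its other probe sets above the filter showed 1.93, 0.34, 0.06 and −0.002.

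Other large falls were found in genes of varied function. Csad, an enzyme of taurine synthesis, was at 8.59 ± 0.36 (SD, n = 5) with phenobarbital and 9.89 ± 0.53 (SD, n = 4) in controls (−1.30 ± 0.34, adjusted p = 0.00573). Dnase2a, the lysosomal acid DNase, fell by 1.02 ± 0.27 on the log2 scale (adjusted p = 0.00766). Control 1014 stood above the other controls for both genes, and neither call held without it (adjusted p = 0.0755 and 0.103). The odorant-binding lipocalin Obp2a had levels of 4.91, 5.33, 5.53, 5.55 and 5.96 in phenobarbital livers, against 6.04, 6.65, 8.19 and 8.04 in controls. Controls 1013 and 1014 were more than 1 unit above 1011 and 1012, and all treated livers were below them (−1.77 ± 0.38, adjusted p = 0.0005). The small GTPase Rab30 (−1.11 ± 0.22, adjusted p = 9.36e-05, and 0.0641 in a fit of the compared groups alone) was again highest in control 1014, at 8.12 against 6.31 to 7.20 in the other controls. Pde5a, which breaks down cyclic GMP, fell by 0.92 ± 0.18 on the log2 scale (adjusted p = 0.000144), and Nlrp12, an innate immune sensor, by 1.06 ± 0.26 (adjusted p = 0.00362).

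**Figure D3:**
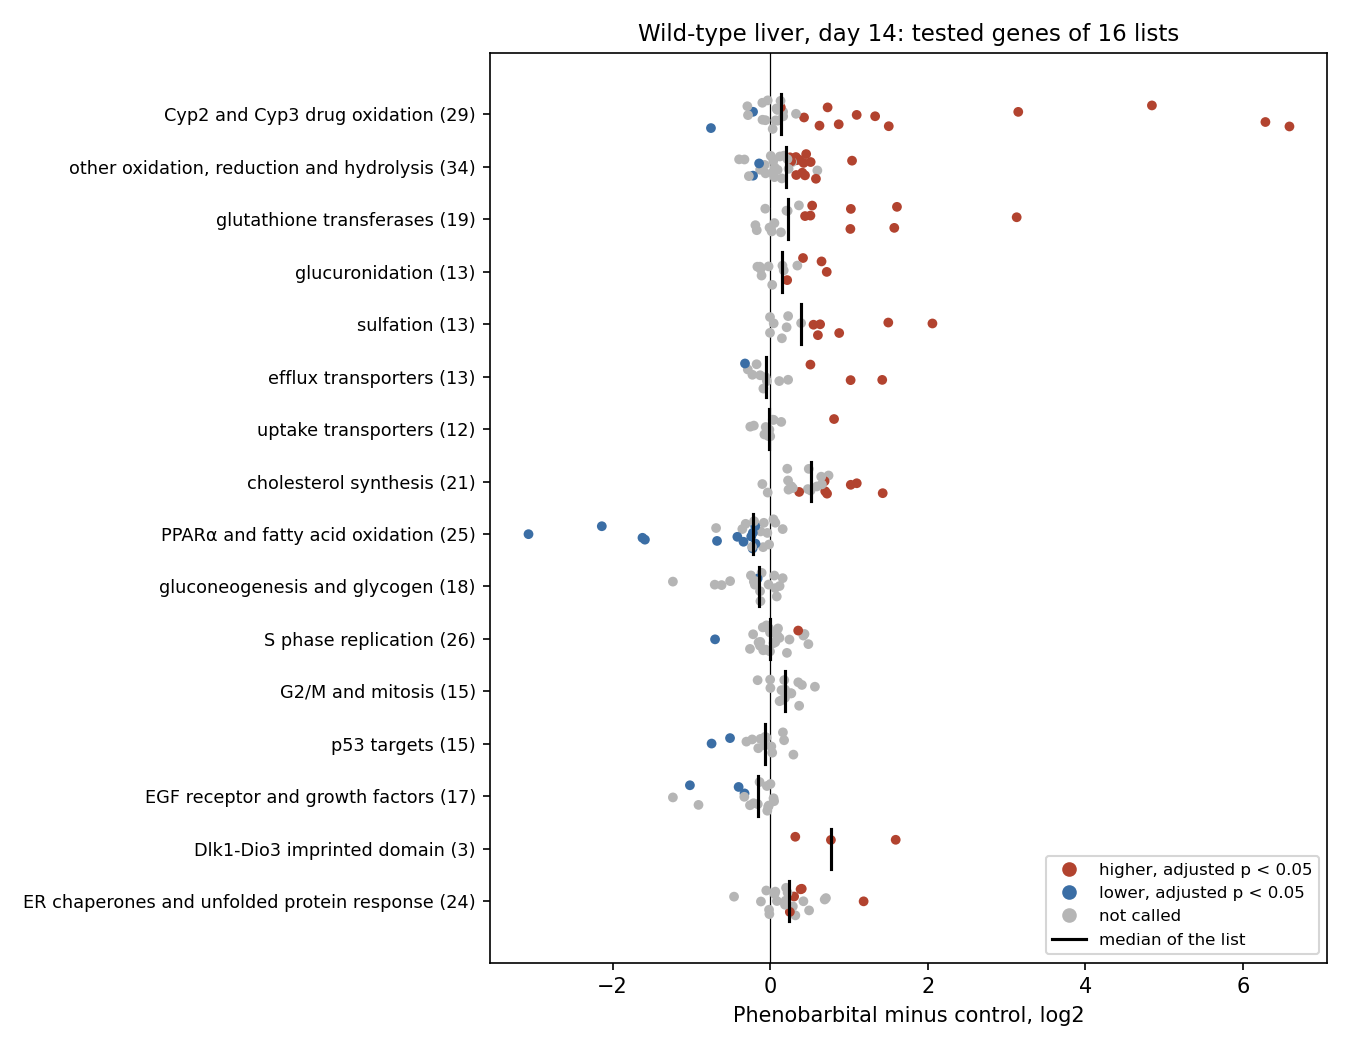
Phenobarbital minus control (log2) for each tested gene of 16 lists, with the number of tested genes in brackets; red points were called higher, blue points lower, grey points were not called, and black bars mark list medians. Drug metabolism lists reach 6.59 (Cyp2b10), fatty acid oxidation reaches −3.07 (Cyp4a14), and the G2/M list has no called gene.

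The study's title puts cell cycle genes in view. Of 26 S phase genes 1 was higher and 1 lower (median 0.00), near the 3.11% and 5.68% over all genes. Of 15 tested G2/M genes 0 were called in either direction by limma, against 8.79% of all genes. At an unadjusted p under 0.05, which 22.2% of all genes reached in either direction, 2 were higher. The median was 0.19, and 14 of the 15 differences were above 0. Another 13 of the 28 listed G2/M genes were below the filter on dim probe sets or not measured. Without treated animal 2013 1 of the 15 was called higher. The G2/M list's mean was 5.15 to 5.32 with phenobarbital and 4.94 to 5.11 in controls, without overlap and at the dim end of the scale. Spc25, a mitosis gene outside that list, was lower with phenobarbital, and its groups did not overlap. The difference was −0.89 ± 0.19 (adjusted p = 0.00066, and 0.0507 in a fit of the compared groups alone). Its other probe set, below the filter, showed 0.13. Mki67, the proliferation marker, was at 4.84 ± 0.16 (SD, n = 5) with phenobarbital and 4.58 ± 0.34 (SD, n = 4) in controls (adjusted p = 0.502), the topoisomerase Top2a differed by 0.27 ± 0.19 (adjusted p = 0.422), and the mitotic kinase Cdk1 by 0.18 ± 0.16 (adjusted p = 0.535). The helicase subunit Mcm5 was at 6.05 to 7.12 with phenobarbital and 5.78 to 6.39 in controls (0.44 ± 0.22, adjusted p = 0.229). Mcm10, a replication initiation factor, was the S phase gene called lower (−0.70 ± 0.21, adjusted p = 0.0237), but not without any one of 1012, 1013, 2012 and 2013 (adjusted p between 0.0623 and 0.128) or without the acinar-rich livers (0.0700). Ccnd1, the G1 cyclin, did not pass (0.27 ± 0.19, adjusted p = 0.418), and passed without the 4 acinar-rich livers (0.77, adjusted p = 0.0449). Myc did not pass either (0.63 ± 0.51, adjusted p = 0.495), and its levels were 5.96 to 6.90 with phenobarbital and 5.21 to 5.82 in controls.

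Clock genes, immediate early genes and periportal genes had 0 called members in limma among 18, 14 and 15 tested, against 8.79% of all genes. They had 2, 1 and 3 at an unadjusted p under 0.05, against 22.2% of all genes. The periportal list's mean was 11.63 to 11.73 with phenobarbital and 11.74 to 11.85 in controls, without overlap, and 12 of its 15 differences were below 0. Genes that male liver keeps lower than female liver were called in 5 of 12 cases, all higher, against 3.11% of all genes, with a median of 0.42. These were Cyp2b9, Sult3a1, Sult1e1, Cyp2b13 and Hao2, of which the first 4 are described above. Of 19 perivenous and Wnt genes 3 were higher (Lect2, Cyp1a2 and Rhbg) and 0 lower, against 3.11% and 5.68% of all genes, with a median of 0.015. Among those not called, the perivenous marker Glul, the glutamine synthetase, was at 12.12 ± 0.14 (SD, n = 5) with phenobarbital and 12.26 ± 0.09 (SD, n = 4) in controls (−0.15 ± 0.07, adjusted p = 0.185). The Wnt target Axin2 differed by −0.01 ± 0.13 (adjusted p = 0.967). Cyp7a1, which controls the pace of bile acid synthesis, was at 8.65 to 10.32 with phenobarbital and 7.99 to 10.03 in controls and did not pass (0.68 ± 0.42, adjusted p = 0.339). The fetal marker Afp did not pass (0.25 ± 0.21, adjusted p = 0.507).

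Day 14 was set beside day 7, which had its own 4 treated and 4 control wild-type mice. Of the 113 genes raised at least 1.5-fold on day 14, 84 (74.3%) were also called higher on day 7, where 2.11% of all genes were, and of the 53 lowered genes 12 (22.6%) were called lower there, against 0.610%. The difference between the 2 effects passed for 2 genes of 12623 (0.0158%), both of the cell cycle and both lower on day 14. Cyclin B2 (Ccnb2) averaged 4.58 ± 0.27 (SD, n = 5) with phenobarbital and 4.22 ± 0.10 (SD, n = 4) in controls on day 14. On day 7 it averaged 6.12 ± 0.70 (SD, n = 4) with phenobarbital and 4.26 ± 0.50 (SD, n = 4) in controls, so that the effects differed by −1.49 ± 0.32 (adjusted p = 0.0452). Stathmin (Stmn1), which destabilises microtubules, differed by −1.15 ± 0.25 (adjusted p = 0.0452), with effects of −0.34 on day 14 and 0.82 on day 7. Both calls were lost without any one of animals 1007, 1008, 1010, 1013, 1014, 2008, 2011, 2012 and 2013. Without day 7 animal 2008 the adjusted p was 0.512 for Ccnb2 and 0.50 for Stmn1. Over all genes the count lay between 0 and 14 when single animals were left out, highest without 2014. An unadjusted p under 0.05 was reached by 617 genes (4.89%). Of the 15 G2/M genes 8 were called higher on day 7, with a median of 0.67.

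Few of the rises were called in livers without CAR and PXR. In knockout mice of day 14 (5 treated, 4 control), 1 of the 113 raised genes was called higher (0.885%) and 1 of the 53 lowered genes lower (1.89%), where 0.238% and 0.0871% of all genes were. The genes chosen by their wild-type difference favour larger wild-type values in these comparisons. Cyp2b10 averaged 5.60 ± 0.33 (SD, n = 5) in treated knockout livers and 5.53 ± 0.34 (SD, n = 4) in knockout controls, a difference of 0.07. The wild-type effect was larger by 6.52 ± 0.29 (adjusted p = 2.54e-44). Cyp2c55 stood at 10.29 ± 0.26 (SD, n = 5) in treated knockout livers and 10.28 ± 0.15 (SD, n = 4) in their controls, between the wild-type groups, and the effects differed by 4.84 ± 0.23 (adjusted p = 6.19e-40). The difference of effects passed for 161 of 12623 genes (1.28%), 90 higher (0.713%) and 71 lower (0.562%) in wild type, or 112 and 54 after quantile normalization. It was 82 in a fit of the compared groups alone. It passed for 53 of the 113 raised genes (46.9%) and 7 of the 53 lowered genes (13.2%).

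Among the lowered genes, Acot1 differed between the genotypes by −1.66 ± 0.31 (adjusted p = 0.000181) and Rdh16f2 by −1.57 ± 0.24 (adjusted p = 1.51e-06). Lrat differed by −1.66 ± 0.39 (adjusted p = 0.0081), a call lost in a fit of the compared groups alone (adjusted p = 0.0610) and without the acinar-rich livers (0.0541). For Cyp4a14 the difference of −3.32 ± 0.94 (adjusted p = 0.0479) held without animal 2011 or 2015 and was lost without each of the other wild-type and knockout animals (adjusted p up to 0.137) and without the acinar-rich livers (0.0760). Angptl4 was the lowered gene also called in the knockout, with an effect of −1.51 there (adjusted p = 0.0177) and −2.14 in wild type. The difference between these effects did not pass (adjusted p = 0.599). For Meg3 the effect was 0.04 in the knockout, and the difference of 1.55 ± 0.24 passed (adjusted p = 6.9e-07).

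**Figure D4:**
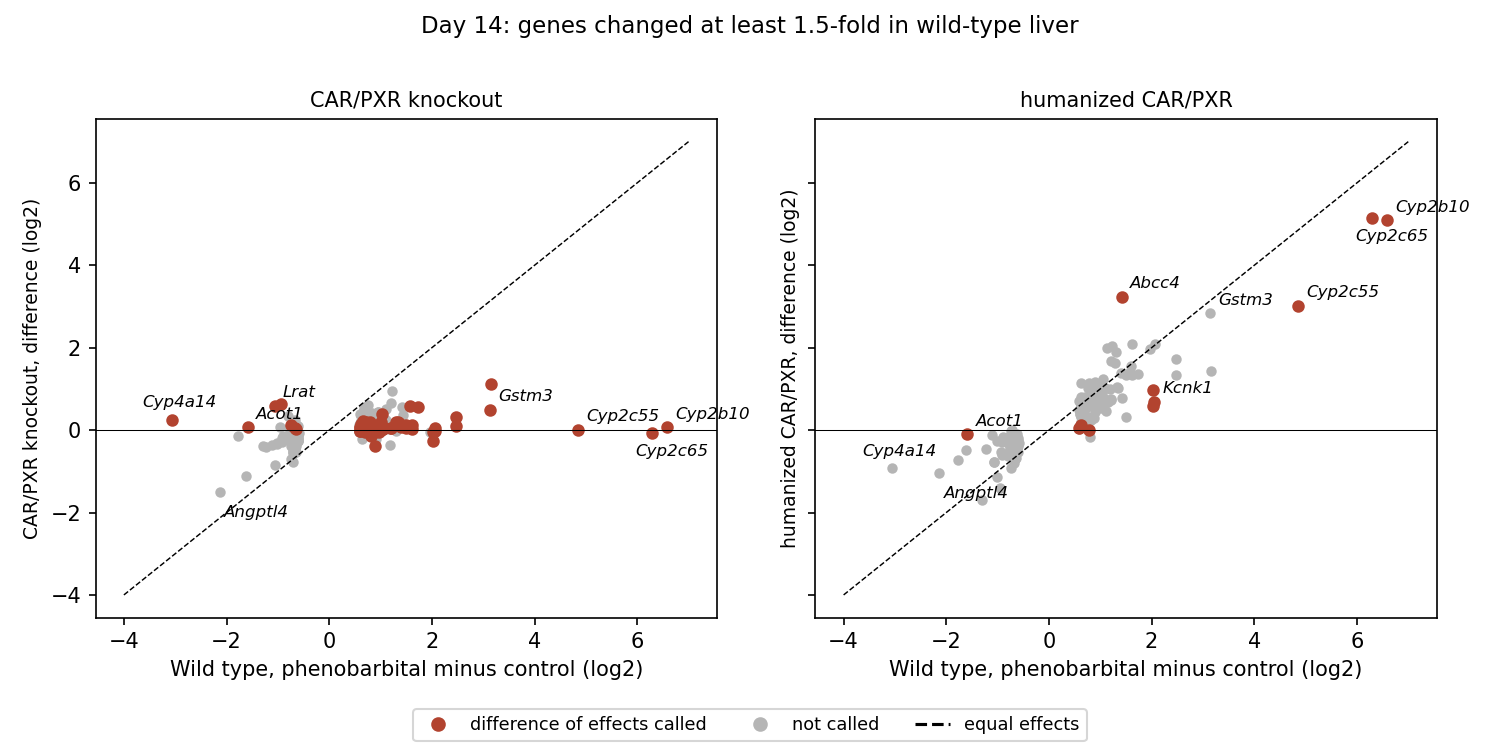
Phenobarbital minus control (log2) on day 14 in wild-type liver (horizontal axis) against the same difference in CAR/PXR knockout liver (left panel) and humanized liver (right panel), for the 166 genes changed at least 1.5-fold in wild type, a choice that itself favours large wild-type values. Red points passed the test of the difference of effects, grey points did not, and the dashed line marks equal effects. In the knockout Cyp2b10 lies at 0.07, Gstm3 at 0.50 and Cyp2b9 at 1.12, and in humanized mice Abcc4 (3.24) lies above the line.

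In mice with the human receptors (5 treated, 5 control) most of the raised genes were also higher. Of the 113 raised genes 84 (74.3%) were called higher in them, where 7.34% of all genes were, and of the 53 lowered genes 22 (41.5%) were called lower, against 4.54%. The difference of effects passed for 40 of 12623 genes (0.317%), 11 higher (0.0871%) and 29 lower (0.230%) in wild type, or 11 and 16 after quantile normalization. It passed for 7 genes in a fit of the compared groups alone, for 72 without treated animal 2014 and 63 without humanized animal 6015, and for 23 to 25 without 1013, 5015 or 6013. Among the genes changed at least 1.5-fold in wild type it passed for 10 of the 113 raised (8.85%) and 1 of the 53 lowered (1.89%). Cyp2b10 averaged 13.16 ± 0.07 (SD, n = 5) in treated wild-type livers and 6.57 ± 0.34 (SD, n = 4) in wild-type controls. It averaged 12.83 ± 0.09 (SD, n = 5) in treated humanized livers and 7.73 ± 0.20 (SD, n = 5) in humanized controls, so that both humanized means lay between the wild-type ones. The effects differed by 1.49 ± 0.28 (adjusted p = 0.000471). Cyp2c55 differed by 1.83 ± 0.23 and 1700067K01Rik by 1.44 ± 0.19 (adjusted p = 5.06e-09 and 8.82e-09). Cyp2c65 (1.13 ± 0.23), Cnmd (1.05 ± 0.22) and Kcnk1 (1.36 ± 0.30) also had larger effects in wild type (adjusted p = 0.00314, 0.00324 and 0.0086). The Kcnk1 call was lost without treated animal 2012 (adjusted p = 0.0568), and those of Cnmd and Kcnk1 in a fit of the compared groups alone (0.105 and 0.238). Without the acinar-rich livers that of Kcnk1 was lost as well (0.349), and that of Cyp2c65 (0.0566).

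For other genes the difference of effects was below 0. Prom1, a surface protein of progenitor and bile duct cells, had levels of 7.13, 5.48, 6.78, 6.84 and 5.90 in phenobarbital livers, against 5.79, 6.37, 5.63 and 5.84 in controls. The groups overlapped and the difference did not pass (0.52 ± 0.36, adjusted p = 0.409). In humanized mice the effect was 4.16, and the effects differed by −3.64 ± 0.49 (adjusted p = 6.91e-08). Abcc4, which rose in wild type as given above, rose by 3.24 in humanized mice, a difference of −1.82 ± 0.25 (adjusted p = 1.05e-07). The carbonyl reductase Cbr3 and the sulfotransferase Sult2a2 showed no call in wild type (0.01 ± 0.21 and 0.05 ± 0.22) and rose in humanized mice by 1.78 and 1.74. Their differences of −1.77 ± 0.28 and −1.70 ± 0.31 passed (adjusted p = 9.04e-06 and 0.000252), the second not in a fit of the compared groups alone (0.425). Acot1, which fell more in wild type, had an effect of −0.09 in humanized mice (−1.50 ± 0.30, adjusted p = 0.00252, and 0.129 in that fit).

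Beside the other wild-type days, each with its own controls, genes followed different courses, which were not tested against day 14 beyond day 7. Cyp2b10 differed by 6.50 on day 1, 7.00 on day 7, 6.59 on day 14, 6.68 on day 28, 5.73 on day 91 and 0.30 on day 119, after 4 weeks of recovery. Meg3 stood at −0.17, 0.54, 1.59, 2.77, 2.71 and 0.41 on the same days, with its day 14 value between those of day 7 and day 28. Cyp2b13 was at 0.15, 0.75, 0.87, 3.25, 4.61 and 1.13, with larger values on days 28 and 91. Angptl4 was at −1.50, −1.10, −2.14, −1.01, −0.70 and −0.03, with its lowest value on day 14.

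**Figure D5:**
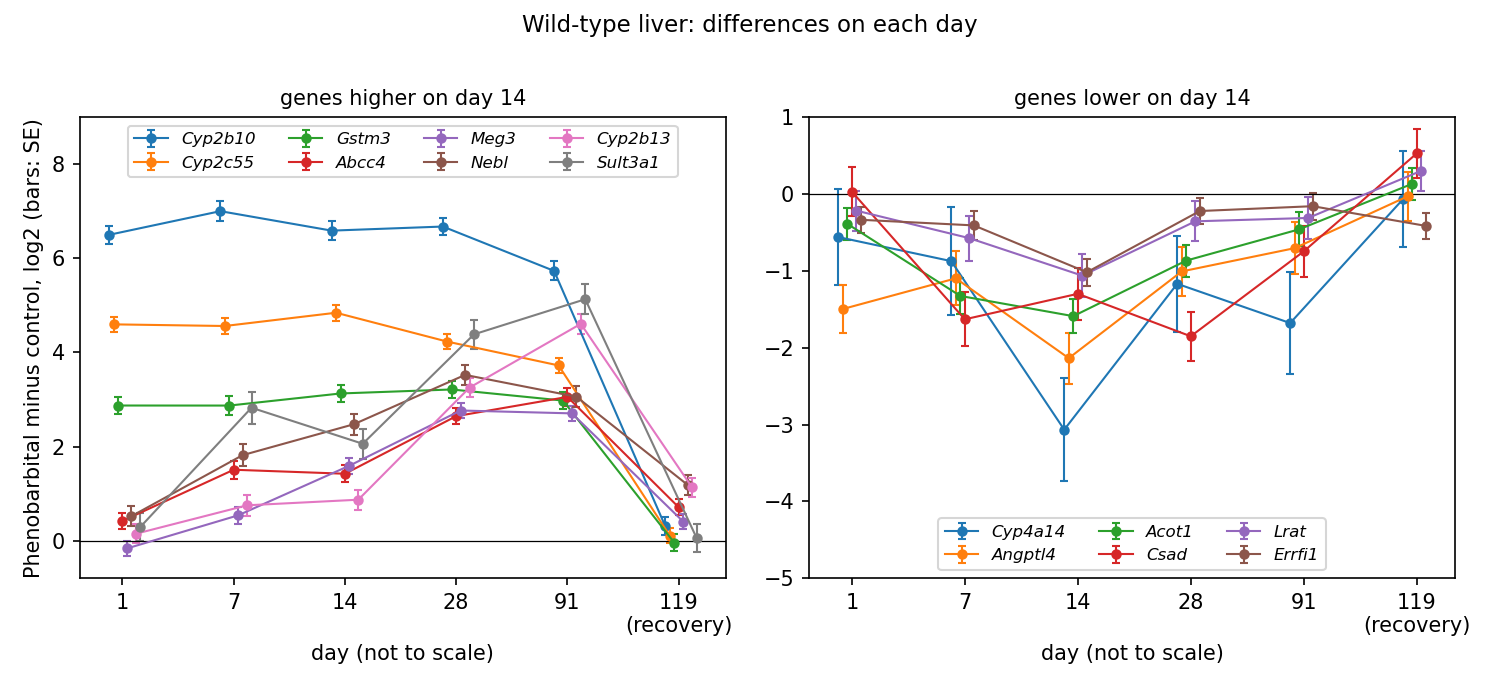
Phenobarbital minus control (log2, bars are SE) in wild-type liver on each sampling day, for 8 genes raised (left) and 6 genes lowered (right) on day 14; days are evenly spaced and day 119 follows 4 weeks without phenobarbital. Cyp2b10, Cyp2c55 and Gstm3 are near their day 14 values by day 1, Meg3, Abcc4 and Cyp2b13 are higher on days 28 and 91 than on day 14, and Cyp4a14 and Angptl4 are lowest on day 14.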

How the data were processed

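RNA of each liver was measured on 1 Affymetrix whole-genome mouse array. The deposited table holds log2 expression values per probe set, made with RMA (background correction, quantile normalization and summary over probes) per the submitters' processing notes. The sources used here do not give its version. The values ran between 2.11 and 15.07, array medians lay between 5.15 and 5.23, and no further scaling was applied. Depth does not apply to arrays, and the number of animals limits the precision.

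Of 45101 probe sets, 34958 had 1 gene symbol, 932 several and 9211 none in the platform annotation, and 34754 matched a RefSeq gene. The probe set with the highest mean over the 167 arrays stood for each of 18194 genes. A gene was tested if it exceeded the array's median on at least 3 arrays, which left 12623 and set aside 5571 dim genes. limma 3.58.1 in R 4.3.3 fitted the means of all 36 groups of genotype, treatment and day, so that the spread was estimated over all groups (130 residual degrees of freedom), with empirical Bayes moderation and Benjamini-Hochberg adjustment within each contrast. Differences of effects between days or genotypes used separate controls on both sides. One pair of near-identical arrays, in another group, was averaged and counted as 1 sample, and another such pair was kept as 2. The labels give each array its own animal.

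Named genes were taken from the 20 largest rises and falls among called genes whose groups did not overlap, the 8 largest called differences of effects each way, up to 4 called members of each list each way, and 31 genes chosen for their function. The comparison, the 53 lists and the genes were chosen with earlier results of these data known. Alternatives were a further quantile normalization, other filters, other probe set rules, array weights, a fit of the compared groups alone, leaving out each animal and, added later, leaving out the 4 livers rich in acinar markers. On simulated data with 100 genes changed by 0.5 and 100 by 1 log2 unit in this contrast over 12623 genes, 89 and 99 were called, and 4.08% of the calls were false. The simulated noise was normal, independent between genes and equal in spread across groups. It held no acinar RNA or outlying animal, so these rates need not hold for the real livers.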

Additional observations from a re-analysis of the deposited data

Results flagged for a closer look

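In 322 sets of values (108 genes and 53 lists, each in both groups), 20 held an animal further from its group than Dixon's limit, where chance gives about 1 in 20. Among controls, animal 1014 stood low for Afp (4.43), Gstm2 (8.01), Mki67 (4.07) and the NRF2 list mean (8.54), and high for Csad (10.68), Dnase2a (11.84) and the mean of male-biased genes (11.51). Control 1013 stood apart for Glul (12.12) and control 1011 for Msmo1 (11.30). Among treated livers, animal 2014 stood apart for Cyp2c29 (13.62), Cyp3a11 (14.33), Myc (6.90), Pck1 (11.15) and Reln (9.41), and animal 2012 for Gstm2 (9.72) and the list means of glutathione transferases (10.88) and haem genes (9.40). Animal 2013 stood apart for Orm2 (8.95) and the mean of oncofetal genes (6.06), and animal 2015 for adipose markers (7.61).

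The effect of phenobarbital on day 14 differed from that on day 7 for Ccnb2 (−1.49) and Stmn1 (−1.15). It differed from that in knock-out liver, with larger wild-type values, for Cyp2b10 (6.52), Cyp2c65 (6.35), Cyp2c55 (4.84), Gstm3 (2.63), Gm10419 (2.37), Cnmd (2.29), Nebl (2.17), Kcnk1 (2.08), 1700067K01Rik (2.07), Cyp2b9 (2.03), Sult3a1 (2.01) and Ccn4 (1.58). Smaller differences of the same direction were those of Meg3 (1.55), Gstm2 (1.49), Sult1e1 (1.46), Cyp2c54 (1.38), Gadd45b (1.33), Tfrc (1.17), Orm3 (1.11), Ces2a (1.02), Ahr (1.00), Gstt3 (1.00), Abcc3 (0.92), Lect2 (0.87) and Abcc2 (0.75). Those of Ugt2b34 (0.65), Gstm1 (0.63), Cyp2c29 (0.63), Ugt2b35 (0.59), Srxn1 (0.49), Papss2 (0.48) and Aldh1a1 (0.34) were smaller still. Wild-type values were lower for Perp (−0.52), Fgfr4 (−0.53), Tspan33 (−0.71), Cyp2c68 (−0.87), Rdh16f2 (−1.57), Lrat (−1.66), Acot1 (−1.66) and Cyp4a14 (−3.32). The Cyp2c68 difference was lost without control 1014 (adjusted p = 0.0801, limma) and without knock-out control 3011 (0.0828).

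Against humanized liver, wild-type effects were larger for Cyp2c55 (1.83), Cyp2b10 (1.49), 1700067K01Rik (1.44), Kcnk1 (1.36), Cyp2c65 (1.13), Cnmd (1.05) and Cyp2c29 (0.51). They were lower for Acot1 (−1.50), Sult2a2 (−1.70), Cbr3 (−1.77), Abcc4 (−1.82) and Prom1 (−3.64).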

How the results depend on the processing

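No paired analysis was possible because the treated and control animals share no replicate number. The count of changed genes, 1109, was 388 in a fit of the compared groups alone (197 higher and 191 lower), 565 to 1176 when single animals were left out, and 738 without the 4 acinar-rich livers (313 higher and 425 lower). The count at least 1.5-fold stayed within 1.5 times of 166 under every alternative, from 112 without control 1014 to 244 without the 4 acinar-rich livers. Its lower part moved more, with 27 and 104 genes in those 2 settings against 53, while the higher part was 85 and 140 against 113. Of the 392 higher genes 184 were kept without each of the 9 animals in turn and 108 under all 19 settings, and of the 717 lower genes 166 and 51. At least 1.5-fold, 61 of 113 higher and 11 of 53 lower genes were kept under all 19. A gene that a setting left untested counted as not kept, as did dim genes where a mean log2 value of at least 6 was required. The counts under all 19 therefore mix lost calls with genes that were not tested.

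Differences of effects rested on the setting, and the cause was not tested. Against day 7, 0 genes passed with quantile normalization, in the compared groups alone (where the fit has fewer samples), with no filter or with a mean of at least 6. Array weights gave 24, all annotated probe sets 6, single animals left out 0 to 14, and the acinar-rich livers left out 8. Against knock-out, the compared groups alone gave 82 and array weights 326. Against humanized, they gave 7 and 72, single animals left out 23 to 72, and the acinar-rich livers left out 23.

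Signs turned only among uncalled genes. Alb was 0.00 with quantile normalization, and Axin2 was 0.017 with it, 0.011 with array weights, 0.038 without the acinar-rich livers and −0.039 to 0.03 without single animals. Nr1i2 was −0.066 without the acinar-rich livers, Sult2a2 −0.01 to 0.106 and Cbr3 −0.115 to 0.086 without single animals. Genes near background are compressed by RMA, which limits folds of the dimmest ones.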

Other observations

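Of 25 genes of oxidative phosphorylation 2 were lower and 0 higher (Cyc1 and Cox6c, median −0.07), near the 5.68% of all genes called lower, and 24 of the 25 differences were below 0. The 2 became 5 without control 1014 and 0 without any one of 1011, 1013, 2012 and 2015, without the 4 acinar-rich livers or in a fit of the compared groups alone. Of 22 proteasome genes 2 were higher (Psma1 and Psmd12, median 0.07), against 3.11% of all genes, and 0 in that fit or without any one of 1013, 1014 and 2015. Of 26 complement and coagulation genes 1 was higher and 3 lower, against 3.11% and 5.68% of all genes, and 0 in either direction in that fit. Of 15 ribosomal protein genes 0 were called in limma, with 2 at an unadjusted p under 0.05, against 8.79% and 22.2% of all genes.

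Among 16 interferon response genes 1 was called higher (Usp18), against 3.11% of all genes, and 0 lower, with a median of 0.24. At an unadjusted p under 0.05 in limma 8 were higher and 0 lower, where 22.2% of all genes reached it in either direction. In limma the Usp18 call was lost without any one of 1012, 1013, 1014, 2012, 2014 and 2015 (adjusted p between 0.0579 and 0.146), with array weights (0.0546) and without the acinar-rich livers (0.106). Of 13 growth hormone and STAT5 genes 1 was lower and 0 higher (median −0.21), near the 5.68% and 3.11% of all genes. Of these differences 11 were below 0, and 3 genes were lower at an unadjusted p under 0.05 in limma, against the same 22.2% in either direction. Of 18 bile acid genes 1 was higher (Akr1d1) and 2 lower, against 3.11% and 5.68% of all genes. Without the acinar-rich livers or control 1012 0 were higher, and without control 1014 0 were lower.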
